A study of Mus musculus with 4 samples.

Results

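Glypicans and syndecans are the main families of heparan sulfate proteoglycans at the cell surface. Rows of the normalized count table whose symbol is 1 of the 6 glypicans Gpc1 to Gpc6 or the 4 syndecans Sdc1 to Sdc4 were read, 10 of the 52459 genes listed, and every 1 of the 10 was found. They were measured by RNA-seq of polyA-selected RNA from the first pharyngeal arch, the embryonic outgrowth that forms the jaws, in mouse embryos of 25 to 27 somites (E9.5 to E9.75). The groups were 2 wild-type libraries and 2 libraries of the genotype Wnt1-Cre;pMes-Bmp4, called transgenic below, in which Cre recombinase driven by a Wnt1 promoter switches on a Bmp4 transgene. The Wnt1 promoter acts in the neural crest lineage and in the dorsal neural tube, whereas the RNA came from the whole arch, so that the cell type behind a value is not known. Neither Wnt1-Cre nor pMes-Bmp4 was present on its own in any library, and the labels give neither the strain nor the number of embryos in a library.

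A glypican is a globular core protein tied to the outer membrane by a glycosylphosphatidylinositol (GPI) anchor. A syndecan crosses the membrane and ends in a short cytoplasmic tail that binds PDZ-domain proteins and the cytoskeleton. Both carry heparan sulfate, a sulfated sugar chain that binds BMP, FGF, WNT and hedgehog proteins, and they act as co-receptors, stores or carriers of these ligands. In the developing face and limb these ligands pattern the mesenchyme and the epithelium, and human loss of GPC3 or GPC6 causes disorders of growth or of the skeleton.

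Sequence before the start site is shown for Gpc3, the glypican with the highest level and the one that rose, and for Gpc5, one of the 2 lowest. Each run is the 250 bases before the start, 5′ to 3′ on the gene's strand, from RefSeq on GRCm38.p6, and capitals mark the GC box letters GGGCGG or their reverse complement CCGCCC. The Gpc3 run is chrX:52613975-52614224 on the minus strand and the Gpc5 run is chr14:115091965-115092214 on the plus strand.
Gpc3: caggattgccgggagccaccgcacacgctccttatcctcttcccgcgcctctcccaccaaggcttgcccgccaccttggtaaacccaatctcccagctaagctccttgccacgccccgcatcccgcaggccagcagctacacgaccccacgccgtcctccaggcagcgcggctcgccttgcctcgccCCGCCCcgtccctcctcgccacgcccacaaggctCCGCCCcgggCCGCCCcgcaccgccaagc
Gpc5: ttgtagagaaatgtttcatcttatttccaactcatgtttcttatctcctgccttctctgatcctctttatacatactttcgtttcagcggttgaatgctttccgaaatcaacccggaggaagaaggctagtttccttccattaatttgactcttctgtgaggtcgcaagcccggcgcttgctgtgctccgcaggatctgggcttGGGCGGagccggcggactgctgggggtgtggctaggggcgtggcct
The Gpc3 run held 3 GC boxes, beginning 63, 29 and 19 bases before the start, and 25 CpG pairs at a GC content of 71.6%. In the Gpc5 run there was 1 GC box, 46 bases before the start, with 12 CpG pairs and a GC content of 51.2%. A GC box was present in 32.7% of all 32851 promoter runs of this length. Letters of elements tied to SMAD proteins, the transcription factors of BMP signalling, were searched on both strands as well. The GC-rich element GGCGCC, which is its own reverse complement, was in neither run, and it was in 9.59% of all runs. The shorter SMAD element CAGAC or GTCTG was also in neither run, against 42.2% of all runs. Among the other members with a sequence, GGCGCC occurred in the run of Gpc4 and the shorter element in those of Sdc1 and Sdc3. Promoter runs were found for 7 of the 10 members, and those of Gpc1, Gpc6 and Sdc2 are not shown.

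Gpc3 (chromosome X, 52272426 to 52613950) and Gpc4 (chromosome X, 52053021 to 52165252) follow each other on the minus strand, 107 kb apart, in GENCODE M21 on GRCm38. Gpc5 (chromosome 14, 115092215 to 116525179) and Gpc6 (chromosome 14, 116925315 to 117976544) follow each other on the plus strand, 400.1 kb apart, and span 1433 and 1051 kb. The other glypicans are Gpc1 (chromosome 1, 92831645 to 92860779) and Gpc2 (chromosome 5, 138273655 to 138280005). The syndecans are Sdc1 (chromosome 12, 8771323 to 8793715), Sdc2 (chromosome 15, 32920723 to 33034935), Sdc3 (chromosome 4, 130792537 to 130826319) and Sdc4 (chromosome 2, 164424247 to 164443887). Exons of Gpc2 overlap those of the same-strand gene Gm43720 over 2376 bases, so the Gpc2 counts are uncertain. Exons of Gpc1 overlap those of Ankmy1 on the opposite strand over 977 bases, and the strand setting of the counting is not given in the sources used here; Ankmy1 had at most 5.14 normalized reads in any library. Shorter overlaps with antisense genes were found for Sdc3, at 48 and 415 bases, and for Gpc5, at 107 bases.

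The libraries held 29607541 to 47849092 reads assigned to genes. Bmp4, the gene of the transgene, read 681.7 and 437.1 in the wild-type libraries and 2656 and 1745 in the transgenic ones; transgene and endogenous reads are counted together. Crest mesenchyme markers, the main tissue of the arch, were all detected, and their summed normalized count was 25948 and 35586 in wild-type and 35950 and 26502 in the transgenic group. Of the 10, 2 rose, Prrx2 and Msx1, and 2 fell, Tfap2a and Barx1. Over all genes tested 2.97% were called higher and 5.28% lower. The alternative tests edgeR and DESeq2 each called 5 of the 10. This sum hides opposite shifts: the mean of Prrx2 went from 6829.4 to 13781.5 and that of Barx1 from 5180 to 1155.8. Of 11 epithelium markers, 10 were tested and 2 rose, and the sum was 27121 and 20422 in wild-type against 36511 and 33754; Krt5 was at 0 in 1 library of each group. Of 7 red cell markers 2 fell, with sums of 674032 and 613210 against 340898 and 380898, and none was at 0 in any library. The part of these shifts in the results on glypicans and syndecans was not tested. In RNA of a whole tissue, fewer cells of a type and less RNA per cell cannot be told apart.

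Levels between genes were compared per length, as normalized reads per kilobase of exon. In wild-type the order of the mean levels was Gpc3, Sdc1, Gpc1, Gpc6, Sdc2, Gpc4, Sdc3, Sdc4, Gpc5 and Gpc2. Gpc3 stood at 7199 ± 60.2 per kb (SD, n = 2) and ranked 385 and 367 among 16225 genes with a known length. Sdc1, the highest syndecan, was at 963.2 ± 71.7 per kb. Gpc1, Gpc6 and Sdc2 were at 225.5 ± 16.8, 223.9 ± 15 and 198.6 ± 22.8 per kb (SD, n = 2), with ranges that overlapped, so these neighbours did not differ beyond their spread. Gpc4 followed at 176 ± 5.15 per kb. Sdc3 and Sdc4, at 74.5 ± 14.9 and 62.9 ± 3.79 per kb, overlapped as well. Gpc5, at 20.2 ± 3.12 per kb, and Gpc2, at 10.4 ± 1.46 per kb, were the lowest. Exons of Gpc2 share 2376 bases with Gm43720, and reads there may not have been counted for Gpc2. Its level per kb may thus be understated, and its place below Gpc5 is uncertain. With the longest transcript as the length, Gpc6 was at 347 and Gpc1 at 278.6 per kb in wild-type, while Sdc2 stayed at 198.6, so the order of these neighbours and the overlap of Gpc1 with Sdc2 depend on the length used.

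In the transgenic libraries Gpc3 was at 11744 ± 63.7 per kb (SD, n = 2), with ranks of 230 and 265. Sdc1 followed at 942 ± 109 per kb. Sdc2 came next, at 277.3 ± 27.4 per kb, and Gpc1 was at 208.2 ± 32.5, or at 257.2 per kb with the longest transcript as the length. Gpc6 and Gpc4 were at 146.7 ± 0.698 and 137.1 ± 12.1 per kb. Gpc3 was thus the main glypican transcript of the arch in both genotypes, with 92% and 91.3% of the summed glypican level per kb in the wild-type libraries and 95.5% and 95.9% in the transgenic ones. Sdc1 made up 72.6% and 75.6% of the syndecan sum in wild-type and 72.4% and 69% in the transgenic group, and Sdc2 made up 17.1% and 13.6% against 18.3% and 23.7%.

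**Figure D1:**
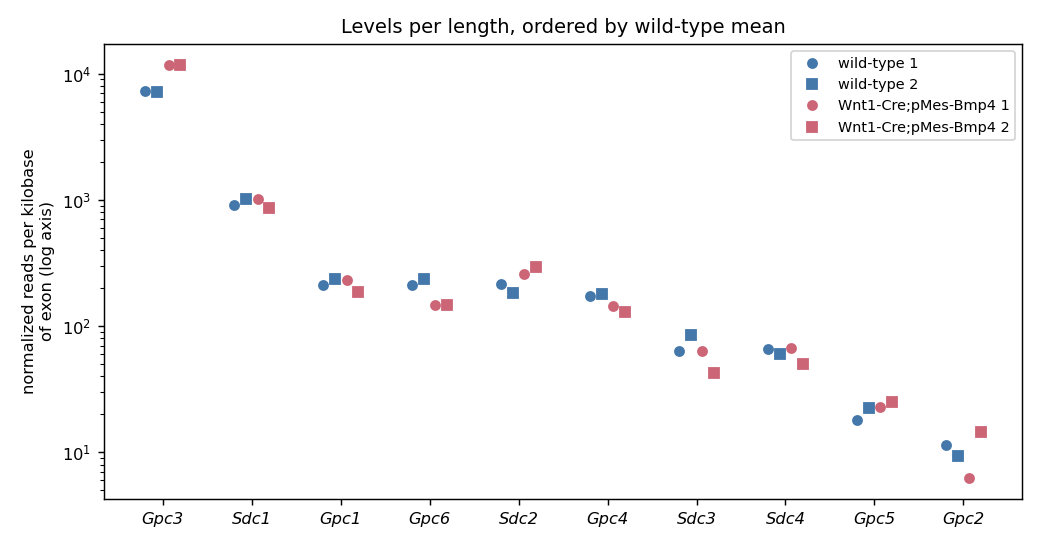
Normalized reads per kilobase of exon (log axis) for each gene in the 4 libraries, ordered by the wild-type mean; blue is wild-type, red is transgenic, circles are libraries numbered 1 and squares libraries numbered 2. Gpc3 lies above all others, at 7157 to 7242 per kb in wild-type and 11699 to 11789 per kb in the transgenic libraries.

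The comparison of the genotypes asks which of these genes differ when the Bmp4 transgene is on. All 10 genes passed the minimum mean of 10 normalized reads and were tested with limma among 16746 genes. Gpc3 was called higher and Gpc6 lower in the transgenic libraries at a limma adjusted p under 0.05, and the other 8 did not pass. Over all genes tested, 2.97% were called higher and 5.28% lower, so 1 of 10 in each direction is a share near the background at this number of genes. The median log2 fold change, transgenic minus wild-type, was -0.12 over the 10 genes and 0.02 over all genes tested. In 3 of the 10 the transgenic libraries both lay above the wild-type ones, and in 3 they both lay below. Over all genes tested 30% had both transgenic libraries above and 29.7% had both below, so that the groups did not overlap in 59.7%.

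**Figure D2:**
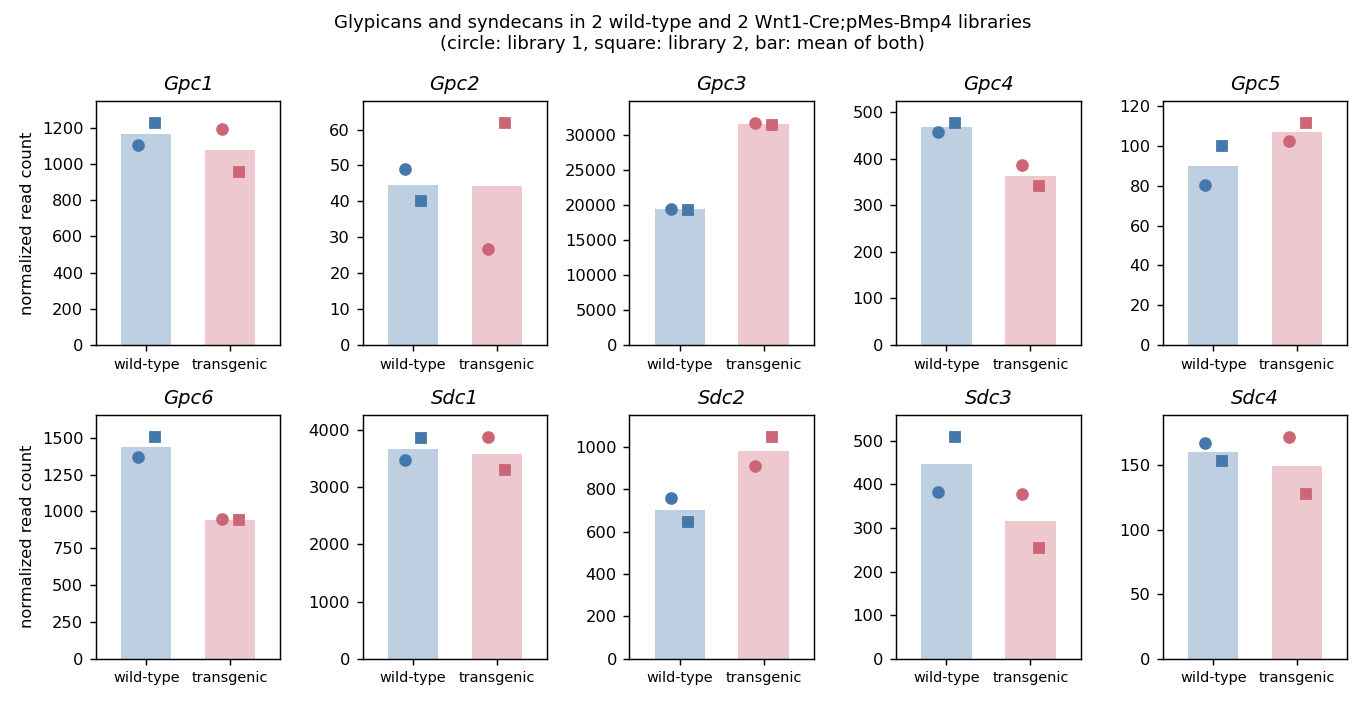
Normalized read count of each gene (vertical axes start at 0 and differ between panels) in the 2 wild-type libraries (blue) and the 2 transgenic libraries (red); circles are libraries numbered 1, squares libraries numbered 2, and bars the mean of the 2. Gpc3 was at a mean of 19365 in wild-type and 31590 in the transgenic group, and Gpc6 went from 1439 to 942.8.

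Gpc3, which restrains body growth and can bind hedgehog and WNT proteins, had normalized read counts of 19480 and 19251 in wild-type and of 31712 and 31469 in the transgenic libraries. The libraries of each genotype lay within 1.01-fold of each other, and the groups were far apart. The mean rose 1.63-fold, from 19365 ± 162 to 31590 ± 171 (SD, n = 2), which limma estimated as 0.71 ± 0.12 (SE) in log2 fold change, at an adjusted p of 0.026. As a share of all reads, Gpc3 took 0.0549% and 0.0554% in wild-type and 0.0947% and 0.0877% in the transgenic group. The gene is X-linked, and the X-inactivation transcript Xist read 1158 and 5004 in the wild-type libraries and 995.1 and 817.2 in the transgenic ones. Between the 2 wild-type libraries Xist differed 4.32-fold, and Gpc3 in wild-type 2 was 0.988-fold its level in wild-type 1. The Y-linked gene Ddx3y read 830 and 340.4 in wild-type and 553.5 and 842.7 in the transgenic libraries. Eif2s3y, also Y-linked, read 1355 and 527.6 against 908.7 and 1537, and Kdm5d read 603 and 348.7 against 445.8 and 491. The part of the sex of the embryos in the Gpc3 rise was not tested. Leaving out either wild-type library ended this call: limma gave a log2 fold change of 0.71 at an adjusted p of 0.172 with replicate 1 removed, and of 0.70 at an adjusted p of 0.386 with replicate 2 removed. Hardly any gene of the whole table was called in these fits: limma called 0 of 16746 with replicate 1 removed (3185 at an unadjusted p under 0.05) and 1 of 16746 with replicate 2 removed (1806 at an unadjusted p under 0.05). The loss is therefore not particular to Gpc3. With Wnt1-Cre;pMes-Bmp4 replicate 1 or 2 left out instead, the log2 fold change of Gpc3 was 0.70 or 0.71.

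Gpc6, a glypican of mesenchyme and growth plate whose loss shortens limbs in humans, had normalized read counts of 1371 and 1507 in wild-type and of 946 and 939.7 in the transgenic libraries. Every transgenic value was below every wild-type value, and the transgenic pair agreed within 1.01-fold. The mean fell 1.53-fold, from 1439 ± 96.2 to 942.8 ± 4.49 (SD, n = 2), which limma estimated as -0.61 ± 0.14 (SE) in log2 fold change, at an adjusted p of 0.0465. With Wnt1-Cre;pMes-Bmp4 replicate 1 or 2 left out, the log2 fold change of Gpc6 was -0.61 or -0.60. Without wild-type replicate 1 the log2 fold change was -0.68 with a limma adjusted p of 0.194, and without wild-type replicate 2 it was -0.54 with a limma adjusted p of 0.462; these are the same fits, with 0 and 1 calls in the whole table.

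Differences between these libraries moved with transcript length, so both calls were read again after a spline correction for length. The Spearman correlation of length with the difference of the genotypes was -0.39 over 12180 genes. Within a genotype, with replicate 1 subtracted from replicate 2, it was 0.28 in wild-type and -0.19 in the transgenic group. A trend with length was thus also present between libraries of the same genotype, and its cause was not tested. Genes of 1744 to 2801 bases, the length class of Gpc3, had a median log2 fold change of 0.23, and those of 3821 to 5240 bases, the class of Gpc6, had -0.03. After the length correction the log2 fold change was 0.50 for Gpc3 and -0.55 for Gpc6, and neither passed, with limma adjusted p values of 0.0851 and 0.0805. In that fit 0.659% of all genes were called higher and 0.998% lower. After a correction for length and GC content Gpc6 passed again (log2 fold change -0.65, limma adjusted p 0.0239) and Gpc3 did not (0.44, limma adjusted p 0.0576). That fit called 3.98% of genes higher and 4.57% lower. On recovered whole reads edgeR called the same 2 genes, with adjusted p values of 0.0283 and 0.0394 in tests that called 2.44% of all genes higher and 5.46% lower. DESeq2 on these reads also called both, with adjusted p values of 2.68e-06 and 0.00294, where 9.99% of the 12850 genes with an adjusted p were called higher and 12.3% lower.

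**Figure D3:**
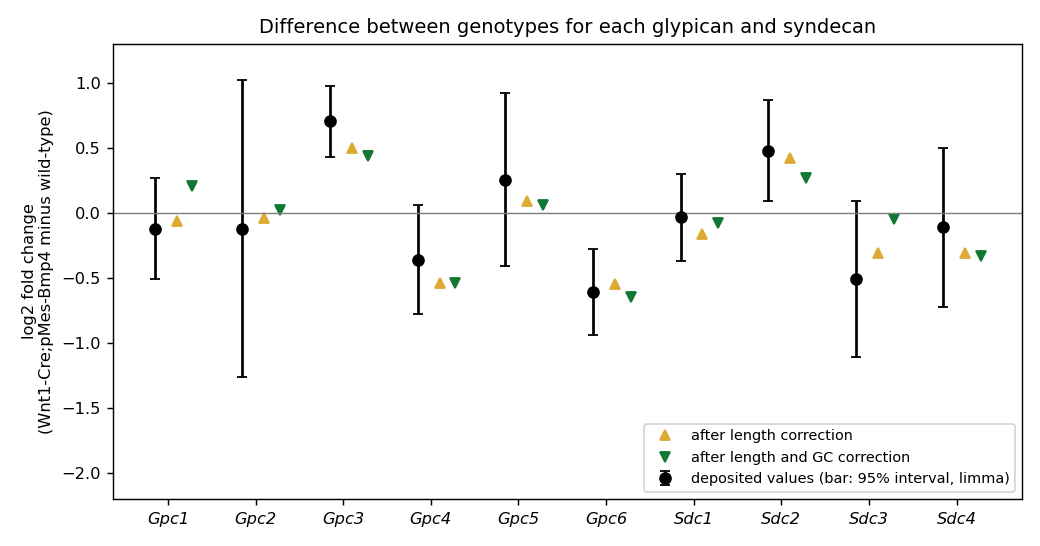
Log2 fold change (transgenic minus wild-type) of each gene from the deposited values, with its 95% interval from limma (black), and the estimates after the length correction (yellow) and the length and GC correction (green). The intervals of Gpc3 (0.43 to 0.98) and Gpc6 (-0.94 to -0.28) lie away from 0, and both corrections bring the Gpc3 estimate closer to 0.

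The ratio of 2 genes within a library does not depend on the scaling between libraries. A trend with transcript length does not cancel in it where the lengths differ. The longest transcripts have 2216 bases for Gpc3, 2837 for Gpc5 and 4146 for Gpc6, and the ratios below are not corrected for this trend. Gpc3 exceeded Gpc6 per kb by 33.9-fold and 30.5-fold in the wild-type libraries and by 80.1-fold and 80-fold in the transgenic ones, so the mean ratio was 2.48 times as high. Over its chromosomal neighbour Gpc4, Gpc3 was 42-fold and 39.8-fold higher in wild-type and 81-fold and 91-fold higher in the transgenic group. The Gpc5 to Gpc6 ratio, of the neighbours on chromosome 14, was 0.0843 and 0.0955 against 0.156 and 0.171. These ratios were not tested, and the pair of Gpc3 and Gpc6 was chosen with their calls known, so the values are a description only.

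Gpc4, the partner of Gpc3 on the X chromosome and a modulator of WNT and BMP signals, read 456.9 and 476.2 in wild-type and 386.1 and 340.7 in the transgenic libraries. Its groups did not overlap, but it did not pass: the log2 fold change was -0.36 ± 0.18 (SE), its 95% interval ran from -0.78 to 0.06, and limma gave an adjusted p of 0.231. The estimate was -0.54 after the length correction, with a limma adjusted p of 0.123. Gpc5, a close relative of Gpc3 in sequence, read 80.1 and 99.8 in wild-type and 102.4 and 111.5 in the transgenic group, which rest on 92 to 108 reads per library. In limma its log2 fold change was 0.25 ± 0.28 (SE), at an adjusted p of 0.586.

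Gpc1, a widely expressed glypican that binds FGF ligands, read 1102 and 1225 in wild-type and 1192 and 955.4 in the transgenic libraries. The groups overlapped, and the 95% interval of the log2 fold change ran from -0.51 to 0.27 (limma adjusted p 0.66). Gpc2, a glypican of developing neurons, rested on 25 to 66 reads per library. It read 49 and 40.1 in wild-type and 26.7 and 61.8 in the transgenic group, so the transgenic libraries lay on either side of the wild-type ones, 2.32-fold apart. Its interval of -1.26 to 1.02 on the log2 scale was the widest of the 10, and no difference was detectable at this depth. Neuron markers summed to 921.3 and 661.3 in wild-type and to 764.7 and 554.1 in the transgenic libraries, with 0 of 8 called by limma, edgeR or DESeq2 and 0 at an unadjusted limma p under 0.05.

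Without Gpc3, the other 5 glypicans summed to 628.8 and 683.4 per kb in wild-type and to 553.2 and 499.5 per kb in the transgenic libraries. The sum of all 6 was 7855 ± 21.6 and 12270 ± 102 per kb (SD, n = 2), which is 1.56 times as high in the transgenic group. Since Gpc3 makes up most of the glypican sum, that sum had to follow it. The other 5 together were at 0.802 of their wild-type level, but did not all move alike. Gpc6, already called lower, went from 223.9 to 146.7 per kb, and Gpc5 went the other way, from 20.2 to 24 per kb. No test was made of these sums.

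Sdc1, the main syndecan of epithelia, was not called. It read 3476 and 3862 in wild-type and 3881 and 3295 in the transgenic libraries, and limma estimated the log2 fold change at -0.03 ± 0.14 (SE), adjusted p 0.892. The 95% interval of -0.37 to 0.30 bounds a difference in either direction. Epithelium markers had a median log2 fold change of 0.47. The keratins Krt14 and Krt18 were among them the ones that rose (log2 fold changes 0.98 and 0.87, limma adjusted p 0.0433 and 0.0309). After the length correction both missed the threshold (0.77 and 0.66, limma adjusted p 0.0974 and 0.0765). After the length and GC correction both passed (0.89 and 0.74, limma adjusted p 0.0358 and 0.0283). Esrp1 and Grhl2 were the only tested markers of this list below 0, at -0.12 and -0.06.

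Sdc2, a syndecan of mesenchyme, read 757.3 and 643.9 in wild-type and 909.7 and 1046 in the transgenic libraries. Both transgenic values were above both wild-type values, at a mean 1.4-fold higher. In limma this log2 fold change, 0.48 ± 0.17 (SE), missed the threshold after adjustment (adjusted p 0.112, unadjusted p 0.0226). With Wnt1-Cre;pMes-Bmp4 replicate 1 left out it passed, at 0.58 on the log2 scale and a limma adjusted p of 0.0128. That fit called far more genes of the whole table, 2675 higher and 2719 lower of 16746. The log2 fold change was 0.60 and 0.37 without wild-type replicate 1 and 2 (limma adjusted p 0.251 and 0.61), and 0.38 without Wnt1-Cre;pMes-Bmp4 replicate 2 (limma adjusted p 0.18). After the length and GC correction it was 0.27 (limma adjusted p 0.217).

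Sdc3, a syndecan with a long extracellular part that is prominent in neural tissue and limb mesenchyme, read 382.7 and 509.1 in wild-type and 377.5 and 254.6 in the transgenic libraries. The highest transgenic value was just under the lowest wild-type value, and limma put the log2 fold change at -0.51 ± 0.26 (SE), adjusted p 0.237. With Wnt1-Cre;pMes-Bmp4 replicate 1 left out it was -0.79, at a limma adjusted p of 0.00489, in the same fit with many calls. It was -0.23 with the other transgenic library left out (limma adjusted p 0.56) and -0.30 with wild-type replicate 2 left out (limma adjusted p 0.766), and after the length and GC correction it was -0.05 with a limma adjusted p of 0.862. Sdc4, a syndecan of focal adhesions, read 166.9 and 153.3 in wild-type and 171.7 and 127.3 in the transgenic group. Its groups overlapped, and limma put the log2 fold change at -0.11 ± 0.26 (SE), adjusted p 0.806. The sum of the 4 syndecans was 1299 ± 60.1 per kb in wild-type and 1331 ± 108 per kb in the transgenic libraries (SD, n = 2), a difference smaller than the spread within the groups.

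Genes that build, modify and release the sugar chains, anchor glypicans or bind syndecan tails were read as 8 lists of 81 genes, of which 75 were tested. Of these 3 rose, 6 fell and 66 did not pass, which is 12% called against 8.25% of all genes tested. The median log2 fold change was -0.03, against 0.02 over all genes. The calls fell in 5 of the 8 lists, and among the heparan sulfate polymerases and the syndecan partners they went in both directions.

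**Figure D4:**
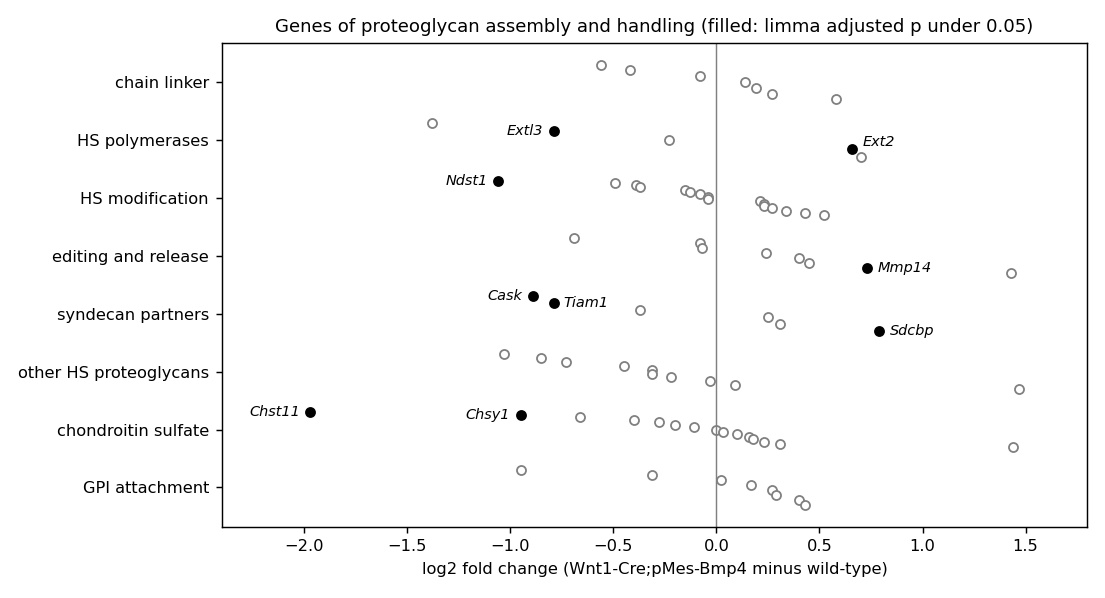
Log2 fold change (transgenic minus wild-type) of the 75 tested genes by list (HS, heparan sulfate); filled points are the 9 genes with a limma adjusted p under 0.05, and open points did not pass. Points of every list lie on both sides of 0, with Chst11 the farthest at -1.97.

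Of the 7 genes that start the chain on the core protein, none was called by limma, edgeR or DESeq2 (0 of 7; 1 at an unadjusted limma p under 0.05). Pxylp1, a phosphatase acting on the linker xylose, read 228.5 and 229.4 in wild-type and 341.3 and 343.1 in the transgenic libraries, at a limma adjusted p of 0.102. Xylt1, a xylosyltransferase, had a log2 fold change of -0.56 and a limma adjusted p of 0.314, and 0.07 once corrected for length and GC content. Among the 5 polymerase genes, Ext2, a subunit of the chain-building enzyme, rose 1.58-fold and Extl3, which adds the sugar that commits the chain to heparan sulfate, fell 1.73-fold. Ext2 read 965.8 and 984.3 against 1668 and 1416 (limma adjusted p 0.0441), and Extl3 read 864.1 and 1012 against 582.3 and 502 (limma adjusted p 0.0397). Ext1, the catalytic partner of Ext2, had a log2 fold change of -0.23 and did not pass (limma adjusted p 0.349).

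Of 20 genes of chain sulfation and epimerization 16 were tested, and 1 fell. Ndst1, which starts sulfation along the chain, read 1033 and 1339 in wild-type and 706 and 451 in the transgenic libraries, a 2.05-fold fall with a limma adjusted p of 0.0456. Glce, the epimerase, had a log2 fold change of -0.49 and did not pass (limma adjusted p 0.122). Of 9 genes that edit or release proteoglycans 8 were tested, and Mmp14, a membrane-bound metalloproteinase, rose 1.67-fold, from 1063 and 1038 to 1939 and 1574 (limma adjusted p 0.038). Sulf2, a sulfatase that trims the chain outside the cell, read 3458 and 4656 against 2760 and 2237 and was not called (limma adjusted p 0.0603, log2 fold change -0.69). It lay near the threshold. DESeq2 (adjusted p 0.00451) and limma with quantile scaling (adjusted p 0.0439) called it. By edgeR (adjusted p 0.0564) and by limma after the length correction (adjusted p 0.11) it was not called.

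Among 6 cytoplasmic partners of syndecans, 1 rose and 2 fell. Sdcbp, which encodes syntenin, read 6968 and 6254 in wild-type and 9759 and 13393 in the transgenic libraries, a 1.75-fold rise with a limma adjusted p of 0.0397. Cask, a membrane-associated scaffold that binds the same tail, fell 1.87-fold (limma adjusted p 0.032), and Tiam1, a Rac activator, fell 1.73-fold (limma adjusted p 0.0499). Of 10 other proteoglycan genes none was called by limma or edgeR (0 of 10; 2 at an unadjusted limma p under 0.05 and 2 called by DESeq2), and the basement membrane genes Hspg2 and Agrn had log2 fold changes of -1.03 and -0.73 with a limma adjusted p of 0.06 each. Corrected for length these were -0.31 and -0.19, and corrected for length and GC content they were 0.12 and -0.02. Of 8 genes of GPI anchor attachment none was called by the main limma fit or edgeR (0 of 8, with 3 at an unadjusted limma p under 0.05 and 2 called by DESeq2). Pgap1 had a log2 fold change of -0.95 (limma adjusted p 0.0574), or -0.32 corrected for length. Pigu had 0.43 (limma adjusted p 0.0838), or 0.71 corrected for length (limma adjusted p 0.0551). Corrected for length and GC content, Pigu passed (0.66, limma adjusted p 0.0226). In that fit Sulf1 (0.47, limma adjusted p 0.0404) and Pdcd6ip (0.54, limma adjusted p 0.0302), named after their values were seen, passed as well. It called 3.98% of all genes higher and 4.57% lower.

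Chondroitin sulfate is the other chain built on the same linker. Of 15 genes tested 2 fell. Chsy1, a chondroitin synthase, read 1143 and 1331 in wild-type and 698.6 and 580.8 in the transgenic libraries, a 1.93-fold fall with a limma adjusted p of 0.0274. Chst11, a sulfotransferase of cartilage matrix, read 108.3 and 151.2 against 38.4 and 26.7, a 3.99-fold fall (limma adjusted p 0.0293). Of these 9 calls, 1 was made again after the length correction, Chsy1, with a log2 fold change of -0.89 and a limma adjusted p of 0.0465, in a fit that called 0.659% of all genes higher and 0.998% lower. Among the other 8, the log2 fold change after that correction was 0.63 for Ext2, 0.62 for Mmp14, 0.62 for Sdcbp and -1.69 for Chst11. It moved closer to 0 by more than 1.5 times for Extl3, Cask, Tiam1 and Ndst1, to -0.46, -0.37, -0.34 and -0.68. Each of the 9 was lost without wild-type replicate 1 and without wild-type replicate 2, with limma adjusted p values of 0.132 to 0.216 and of 0.376 to 0.451, in fits that called 0 and 1 of all 16746 genes.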

How the data were processed

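RNA-seq of whole first pharyngeal arches was analysed in 2 wild-type and 2 Wnt1-Cre;pMes-Bmp4 libraries. What was deposited is a table of normalized gene signal; featureCounts made the counts, per the file headers, and in each column a count is divided by a size factor. Named in the submitters' processing notes are the mm10 build and fastp 0.21.0, while aligner, annotation release and strand setting were not given in the sources used here. When each column was divided by its smallest positive value, 100% of the values came out whole within 0.01.

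Genotypes were compared with limma 3.58.1 (R 4.3.3), its prior variance fitted with a trend, on log2(value + 1). It covered the 16746 genes whose mean reached 10 and was two-sided, with Benjamini-Hochberg adjustment over all of them and a threshold of 0.05. Fold changes on that scale understate those of low genes. The fit had 2 residual and 5.26 prior degrees of freedom. The labels do not say that libraries came from separate litters, so p-values measure the spread between these libraries, which may in part be technical. An exact permutation test of 2 against 2 cannot go below 0.333. Intervals at 95% use the moderated error.

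The alternatives tried were no filter or a minimum mean of 50, pseudocounts of 0.5 and 5, TMM and quantile scaling, limma without the trend or robust, a block for the replicate number, leaving out each library, spline corrections (4 degrees of freedom) for transcript length and for length and GC content, and edgeR 4.0.16 and DESeq2 1.42.0 on the recovered reads. Their use on the 8 chain and partner lists, and a crossed block, were added after seeing the data.

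Exon lengths and positions came from GENCODE M21 on GRCm38, promoter sequences from RefSeq on GRCm38.p6. Levels per kb used the union of exons. All 10 members are named; each list gave up to 6 called genes in order of p, or its 2 genes of lowest p if fewer than 2 passed, and Ext1 was named after its values were seen. The members and lists were chosen with earlier results of these data known. Markers of endothelium, neural tube, arch mesoderm and muscle, myeloid cells and glial crest were also read: 0 of 8, 0 of 3, 0 of 5, 0 of 3 and 1 of 4 tested were called by limma, with 4, 1, 2, 1 and 3 at an unadjusted p under 0.05, by edgeR 0, 0, 0, 0 and 1, and by DESeq2 2, 0, 2, 0 and 2. In 3 simulated data sets with 200 of 16746 genes changed, the test recovered on average 35.3% of those set at 2-fold and 70.7% of those at 4-fold. It also called on average 14 genes that had been left unchanged, so some calls near the threshold may be false. The simulated data behind these figures held no trend with length. In the real data 1382 of 16746 genes were called and such a trend was present, so these rates may not carry over.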

Additional observations from a re-analysis of the deposited data

How the results depend on the processing

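Of the 10 glypicans and syndecans, 1 was called higher and 1 lower in the main analysis. These counts became 0 and 0 under limma without the trend, where no gene of the whole table passed (0 of 16746; 3925 at an unadjusted p under 0.05), and 0 and 0 after the length correction. With the replicate number as a block both counts were 0, and with the crossed pairing they were 2 and 1, in a fit that called 1763 higher and 1952 lower over the whole table, against 498 and 884 in the main analysis. After the length and GC correction they were 0 and 1. The numbers do not pair the libraries by any label, and deviations of same-numbered libraries had a Pearson r of -0.147 across genes; over the whole table the block called 165 higher and 543 lower. With 1 library left out, each count ranged from 0 to 2; both were 0 without either wild-type library, in fits that called 0 and 1 of all 16746 genes (3185 and 1806 at an unadjusted p under 0.05) and where the lone library of a group is assumed to vary like the other group. The Gpc3 and Gpc6 calls were made again under both pseudocounts, both filters, TMM and quantile scaling, robust limma, edgeR and DESeq2.

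Among the members that were not called, the signs of Gpc1, Gpc2, Sdc1 and Sdc4 depended on the setting. Gpc4, Gpc5, Sdc2 and Sdc3 kept their sign in every setting. With 1 library left out, log2 fold changes ranged from -0.28 to 0.04 for Gpc1, from -0.71 to 0.47 for Gpc2, from -0.15 to 0.08 for Sdc1 and from -0.33 to 0.10 for Sdc4. Gpc2 was at 0.02 and 0.47 without the first library of each group, Sdc1 at 0.04 without wild-type replicate 2, and after the length and GC correction Gpc1 was at 0.21, Gpc2 at 0.02, Hspg2 at 0.12 and Xylt1 at 0.07. The cause was not tested. Gpc2 rested on 25 to 66 reads per library, and the part of depth in its changes of sign was not tested.

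All 9 calls in the chain and partner lists kept their direction in every alternative, with 0 past the threshold in the fits that leave out a wild-type library or the trend, 1 after the length correction, 4 after the length and GC correction, 4 with the block and 8 in edgeR and with quantile scaling.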

Other observations

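The set of heparan sulfate genes that the arch transcribes was read per length, for genes chosen after their values were seen. Of the N-deacetylase/N-sulfotransferases, Ndst1 was at 143.2 ± 26.2 normalized reads per kb in wild-type (SD, n = 2), Ndst2 at 82.8 ± 4.49, Ndst3 at 13.2 ± 2.58 and Ndst4 at 0.731 ± 0.0406. In the transgenic libraries Ndst1 was at 69.9 ± 21.8 per kb and Ndst2 at 74.7 ± 1.12, so that their ranges overlapped there and not in wild-type. These levels are not corrected for the trend with length. The log2 fold change of Ndst1 was -1.06, and -0.68 after the length correction (limma adjusted p 0.128). That of Ndst2 was -0.15, and -0.14 after it. Among the 6-O-sulfotransferases Hs6st2 led in both genotypes, at 231.4 ± 12.8 and 224.8 ± 4.21 per kb, with Hs6st1 at 59.6 ± 2.33 and 46.8 ± 17 per kb. Of the sulfate donor synthases, Papss1 was at 534.1 ± 59.3 per kb in wild-type and Papss2 at 6.44 ± 2.62. Sulf2 was above Sulf1 in both genotypes, at 691 ± 144 against 119.1 ± 0.19 per kb in wild-type and at 425.6 ± 63 against 140.3 ± 6.05 per kb in the transgenic group.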
